A study of Homo sapiens with 8 samples.

Results

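The genes described here are the hypoxia-inducible factor (HIF) pathway and the genes it is known to induce when oxygen is low, in a human breast cancer line given an androgen. The list held 40 genes, with glycolytic enzymes left out, and each gene was read by its brightest probe set among those annotated to 1 symbol only. Of these, 39 were measured among 19775 genes, and CA9, a membrane carbonic anhydrase, was not analysed here. MDA-MB-453 is an established breast cancer cell line of apocrine character, negative for the estrogen receptor and responsive to androgens. Before treatment all cells spent 3 days in 5% charcoal/dextran-treated serum, which is poor in steroids, in medium free of phenol red. They then received vehicle, or 10 nM DHT (5α-dihydrotestosterone, the potent natural androgen) for 4 h, 16 h or 48 h. Each of the 4 groups had 2 arrays, labelled as biological replicates, and total RNA was hybridised to Affymetrix HG-U133 Plus 2.0 arrays. The vehicle labels give no time, so DHT and time in culture cannot be told apart.

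HIF is a pair of proteins: an oxygen-sensitive alpha subunit (HIF1A or EPAS1) and a constant partner. While oxygen is present, the prolyl hydroxylases EGLN1 and EGLN3 mark the alpha subunit, and VHL, the recognition part of a ubiquitin ligase, then sends it for destruction. When oxygen is low the alpha subunit escapes this and switches on genes for blood vessel growth, mitochondrial turnover, collagen modification, glycogen and its own hydroxylases. The control acts largely on protein, so mRNA levels of HIF1A do not report HIF activity.

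The DNA core that HIF binds reads ACGTG or GCGTG. The promoters below belong to the members with the largest called change against vehicle among those with an entry in the promoter table. They are shown because 3 of the 4 genes were called higher at 16 h and 48 h, whereas ANKRD37 was lower at 16 h and higher at 48 h. Each is the 250 bases before the annotated start (RefSeq, GRCh38.p14), 5′ to 3′ on the gene's strand, with capitals marking ACGTG or GCGTG on either strand.
P4HA1 (chr10:73096867-73097116, minus strand): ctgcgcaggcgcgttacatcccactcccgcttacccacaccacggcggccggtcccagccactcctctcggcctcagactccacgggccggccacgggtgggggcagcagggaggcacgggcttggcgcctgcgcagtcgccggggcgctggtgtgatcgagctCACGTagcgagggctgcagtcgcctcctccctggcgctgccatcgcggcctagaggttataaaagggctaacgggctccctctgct
BNIP3 (chr10:131981924-131982173, minus strand): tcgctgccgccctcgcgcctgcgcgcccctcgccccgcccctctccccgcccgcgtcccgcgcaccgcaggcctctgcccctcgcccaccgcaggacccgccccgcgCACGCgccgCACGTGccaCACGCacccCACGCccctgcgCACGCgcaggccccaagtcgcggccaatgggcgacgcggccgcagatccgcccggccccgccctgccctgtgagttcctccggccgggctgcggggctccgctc
ANKRD37 (chr4:185396591-185396840, plus strand): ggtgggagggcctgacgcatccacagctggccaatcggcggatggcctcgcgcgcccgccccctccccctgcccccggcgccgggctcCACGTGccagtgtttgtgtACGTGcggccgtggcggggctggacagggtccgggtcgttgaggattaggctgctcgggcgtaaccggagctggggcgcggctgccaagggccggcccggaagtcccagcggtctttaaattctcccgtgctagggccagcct
FAM162A (chr3:122383932-122384181, plus strand): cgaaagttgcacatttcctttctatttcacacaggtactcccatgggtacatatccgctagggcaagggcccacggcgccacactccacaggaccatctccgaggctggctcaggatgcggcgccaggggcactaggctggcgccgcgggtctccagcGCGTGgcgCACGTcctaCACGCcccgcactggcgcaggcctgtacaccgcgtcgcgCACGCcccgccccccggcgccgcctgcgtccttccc

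The BNIP3 window held 6 matches, the nearest starting 104 bases and the farthest 143 bases before the start, FAM162A held 4, ANKRD37 3 and P4HA1 1, at 86 bases. A CACGTG is read on both strands and so counts as 2 overlapping matches. It is also the E-box, which MYC and BHLHE40 are known to bind. Of the 28 measured members with a promoter entry, 25 had at least 1 match in a window. By window, 32 of 37 windows of members (86.5%) held a match, against 43.2% of the 35116 windows of all genes. CACGTG itself was in 10 of the 37 (27%), against 6.34% of all windows. A match of ACGTG or GCGTG was found for 12 of 14 members higher at 48 h, and for 13 of 14 other members with an entry. For CACGTG the counts were 4 of 14 and 6 of 14. These are matches of letters in short windows, and no binding was measured.

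The arrays had median log2 signals of 7.59 to 7.63. The line showed its luminal markers: ERBB2, KRT8, KRT18, GATA3, FOXA1 and SPDEF lay between the 95.8th and 99.5th percentile of all genes by mean signal, and CDH1 at the 69.8th. ESR1, the estrogen receptor gene, read 8.23 to 8.62, at the 50.6th percentile. Of the markers of other cells, KRT14, CDH5 and KDR were the dimmest, at the 4.52nd to 11.4th percentile, while COL1A1 stood at the 85.5th, within 10.57 to 10.70 on all arrays. The rest lay between, from COL3A1 at the 20.3rd to PECAM1 at the 67.6th, with KRT5 at the 46.5th and CD3E at the 50.9th. Not all markers of other cells were therefore dim. As a check of the androgen response, FKBP5, an immunophilin whose gene responds directly to androgen, rose by 3.34 log2 units at 48 h. DHT 16 h replicate 2 stood apart, with its 3′ control probe set for ACTB above the 5′ one by 1.52 log2 units, against 0.203 to 0.945 on the other 7 arrays. The mean signal over the members was 10.24 and 10.26 on the 16 h arrays, so on that average this array lay close to its replicate. Some probe sets not used in that average read lower on it. For VEGFA these read 9.03 and 8.78, against 10.85 and 10.12 on replicate 1, while the remaining one read 11.59 against 11.54.

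Of the hypoxia-inducible genes, 1 was called after 4 h of DHT, as lower, 12 were higher by 16 h and 19 by 48 h. A gene was called at an adjusted p below 0.05 in limma, adjusted over all 19775 genes. At 4 h 0 of 39 members were higher and 1 was lower, against 0.106% and 0.0708% of all genes. In limma 8 members had an unadjusted p below 0.05 at 4 h, with no share of all genes computed at that level. At 16 h 12 members were higher (30.8%) and 2 lower (5.13%), against 2.55% and 4.30% of all genes. At 48 h 19 were higher (48.7%) and 1 lower (2.56%), against 3.13% and 6.38% of all genes. Without vehicle replicate 1, 6 members were higher at 16 h, and without DHT 16 h replicate 2, 7 were. Marker genes moved alongside: of 7 luminal markers 4 were lower at 48 h, GATA3 (-0.85), FOXA1 (-0.72), ERBB2 (-0.65) and CDH1 (-0.44), and at 16 h 2 were lower and SPDEF was higher (0.41). The mean signal of the luminal markers was 12.41 and 12.42 on the 48 h arrays, against 12.76 and 12.81 on the vehicle arrays. Of 12 markers of fibroblasts, immune, endothelial and basal cells, 1, the basal keratin KRT5, was higher at 48 h (0.51, adjusted p = 0.00666), and their mean signal was 7.78 and 7.73 on the 48 h arrays, against 7.61 and 7.72 on the vehicle arrays. The part of these shifts in the members' changes was not tested. In bulk RNA, fewer cells of a type and less RNA per cell cannot be told apart.

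The median log2 change of the members was -0.03 at 4 h, 0.15 at 16 h and 0.41 at 48 h, against 0.00, 0.02 and 0.01 for all genes. At 48 h both DHT arrays lay above both vehicle arrays for 26 of 39 members, against 25.8% of all genes. At 16 h the same held for 19 members, against 25.9% of all genes. A test for a change at any time called 23 of 39 members, against 8.90% of all genes. The 3 comparisons with vehicle use the same vehicle arrays, so their calls are not independent of each other.

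**Figure D1:**
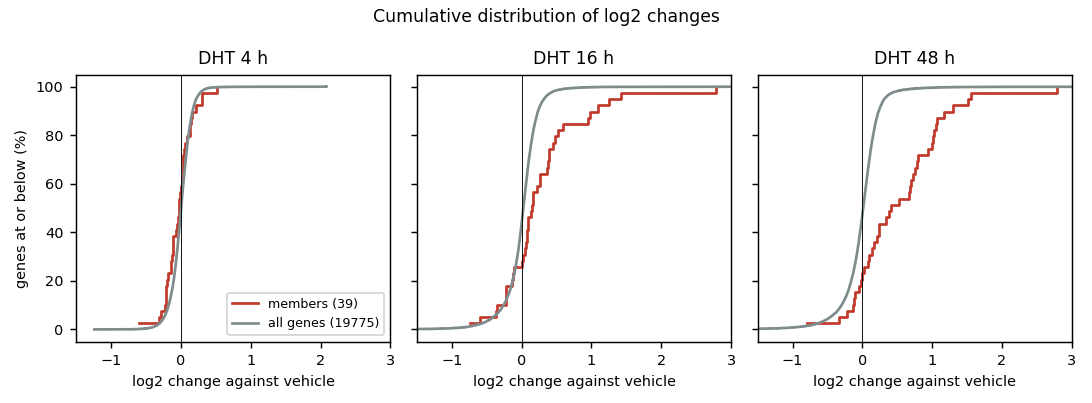
Cumulative share of genes (y axis, percent) at or below each log2 change against vehicle (x axis) for the 39 members and for all 19775 genes, at 4 h, 16 h and 48 h of DHT. The members' curve lies near that of all genes at 4 h and to its right at 16 h and 48 h, with medians of 0.15 and 0.41.

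**Figure D2:**
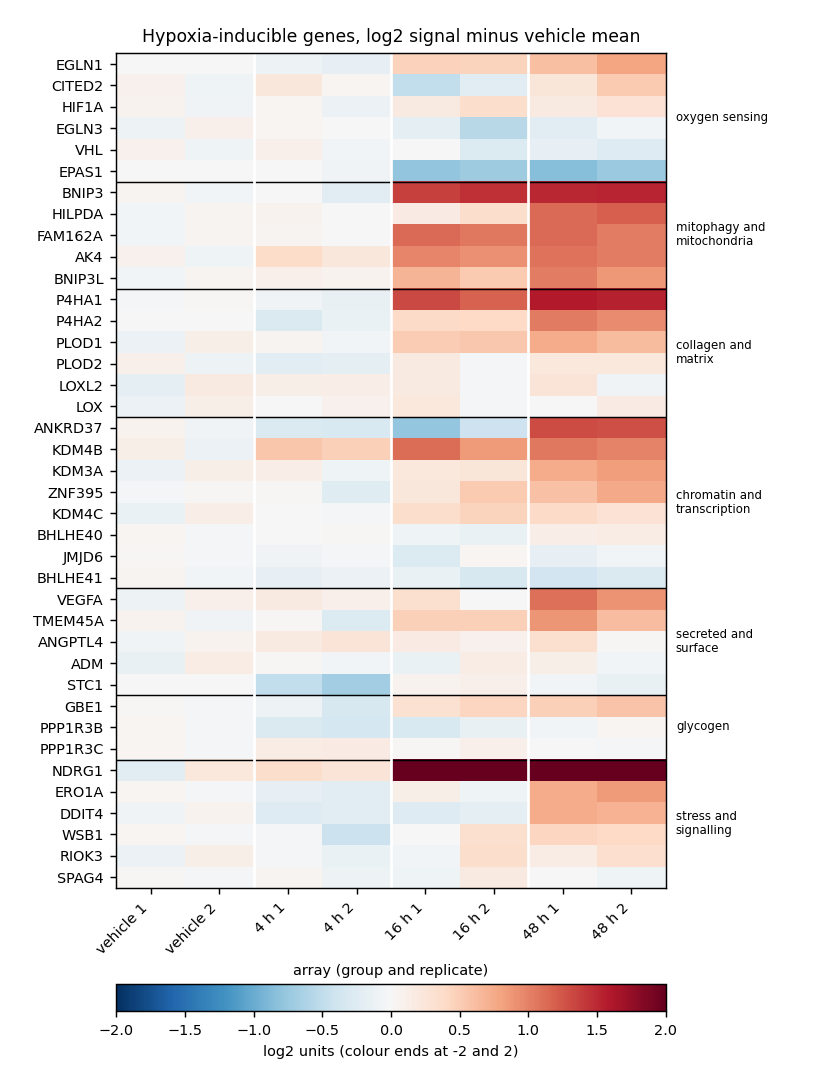
Log2 signal of each of the 39 members on each of the 8 arrays, minus the mean of the vehicle arrays (colour, log2 units, ends at -2 and 2), with genes grouped by role. Most of the colour appears at 16 h and 48 h, NDRG1, BNIP3 and P4HA1 being deepest and EPAS1 blue at both times.

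Within the oxygen-sensing group, the alpha subunit EPAS1 fell, the hydroxylase EGLN1 rose, and HIF1A, VHL and EGLN3 had no call. EPAS1 read 11.13 and 11.15 log2 units in vehicle, 11.14 and 11.07 at 4 h, 10.36 and 10.43 at 16 h, and 10.29 and 10.39 at 48 h. All 4 arrays of the later times lay below all vehicle and 4 h arrays. The fall was -0.74 ± 0.09 at 16 h (SE, n = 2 each, adjusted p = 0.000558) and -0.80 ± 0.09 at 48 h (adjusted p = 0.000194). A second, dimmer probe set of EPAS1 had -0.96 and -0.38 with no call, and read 6.85 on DHT 16 h replicate 2 against 8.48 on replicate 1. The remaining one, dim at 5.34 log2 units, had 0.02 and 0.20, and with the mean of all probe sets EPAS1 was not called at 48 h (-0.32, adjusted p = 0.227).

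HIF1A read 11.53 and 11.39 in vehicle, 11.51 and 11.35 at 4 h, 11.65 and 11.82 at 16 h, and 11.65 and 11.76 at 48 h. The later arrays were the higher ones, but its log2 changes of 0.27 ± 0.11 and 0.24 ± 0.11 were not called (adjusted p = 0.176 and 0.209). VHL read 9.17 and 9.00 in vehicle, 9.18 and 9.03 at 4 h, 9.07 and 8.82 at 16 h, and 8.92 and 8.82 at 48 h. Its groups overlapped at 4 h and 16 h, and its change of -0.21 ± 0.11 at 48 h was not called (adjusted p = 0.309).

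EGLN1, the main oxygen-sensing hydroxylase and itself a HIF target, read 11.33 and 11.33 in vehicle, 11.22 and 11.16 at 4 h, 11.78 and 11.77 at 16 h, and 11.93 and 12.11 at 48 h. It rose by 0.45 ± 0.09 at 16 h (adjusted p = 0.0152) and 0.69 ± 0.09 at 48 h (adjusted p = 0.000775). Its 16 h call was lost without either vehicle array and without DHT 16 h replicate 2 (adjusted p up to 0.101). With the mean of all its probe sets neither time was called (0.24 and 0.54, adjusted p = 0.441 and 0.0575). EGLN3, the hydroxylase most often strongly induced by hypoxia, read 12.64 and 12.85 in vehicle, 12.79 and 12.76 at 4 h, 12.56 and 12.19 at 16 h, and 12.53 and 12.69 at 48 h. Its change was -0.37 ± 0.13 at 16 h (adjusted p = 0.124) and -0.14 ± 0.13 at 48 h (adjusted p = 0.590), and the 48 h arrays overlapped vehicle. Without DHT 16 h replicate 1 EGLN3 was called lower at 16 h, at -0.56 (adjusted p = 0.0218).

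CITED2, which competes with HIF for its coactivators, read 10.68 and 10.52 in vehicle, 10.82 and 10.63 at 4 h, 10.11 and 10.37 at 16 h, and 10.84 and 11.12 at 48 h. Both 16 h arrays lay below vehicle and both 48 h arrays above it, with neither difference called (-0.36 and 0.38, adjusted p = 0.138 and 0.0993). The difference between 48 h and 16 h was called, at 0.74 ± 0.13 (adjusted p = 0.0238), and was lost without either 48 h array (adjusted p up to 0.210).

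All 5 members of the mitochondrial and lipid droplet group rose by 48 h. BNIP3, a mitophagy receptor in the outer mitochondrial membrane, read 11.72 and 11.61 in vehicle, 11.66 and 11.43 at 4 h, 13.04 and 13.13 at 16 h, and 13.17 and 13.19 at 48 h. The 16 h arrays were already close to the 48 h ones. BNIP3 rose 2.67-fold at 16 h (1.42 ± 0.10 log2 units, adjusted p = 1.23e-05) and 2.86-fold at 48 h (1.51 ± 0.10, adjusted p = 3.33e-06). Its relative BNIP3L, also a mitophagy receptor, read 11.64 and 11.75 in vehicle, 11.79 and 11.76 at 4 h, 12.37 and 12.21 at 16 h, and 12.72 and 12.55 at 48 h. It rose by 0.60 ± 0.10 at 16 h (adjusted p = 0.00456), a call lost without vehicle replicate 1 (adjusted p = 0.0544), and by 0.94 ± 0.10 at 48 h. The second probe set of BNIP3L was called at both times, at 0.90 and 1.08.

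FAM162A, a mitochondrial protein linked to hypoxic cell death, read 11.67 and 11.79 in vehicle, 11.79 and 11.73 at 4 h, 12.86 and 12.79 at 16 h, and 12.86 and 12.75 at 48 h. It rose 2.14-fold at 16 h (adjusted p = 4.22e-05) and 2.11-fold at 48 h (adjusted p = 2.48e-05), with no further step between these times. This probe set is of the _x_at kind, which can match more than 1 transcript. The 2 other _x_at sets of the gene agreed in size at 48 h (1.12 and 1.15), while the other 2 sets, both dimmer, gave 0.23 with no call and 0.46. AK4, an adenylate kinase of the mitochondrial matrix, read 11.16 and 10.99 in vehicle, 11.44 and 11.30 at 4 h, 12.06 and 11.99 at 16 h, and 12.16 and 12.09 at 48 h. Its 4 h arrays lay between vehicle and the later times, with no call at 4 h (0.30 ± 0.10, adjusted p = 0.479). AK4 rose by 0.95 ± 0.10 at 16 h and 1.05 ± 0.10 at 48 h (adjusted p = 0.000173 and 4.41e-05).

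HILPDA, a lipid droplet protein that blocks the lipase ATGL, read 11.14 and 11.26 in vehicle, 11.27 and 11.21 at 4 h, 11.36 and 11.56 at 16 h, and 12.34 and 12.40 at 48 h. Unlike in the preceding genes, the arrays of 16 h stayed near vehicle (0.26 ± 0.10, adjusted p = 0.172). At 48 h HILPDA was 2.24-fold higher (1.16 ± 0.10, adjusted p = 2.29e-05).

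Among genes that modify or crosslink collagen, 3 of 6 were higher at both 16 h and 48 h. P4HA1, the main catalytic subunit of collagen prolyl 4-hydroxylase, read 11.25 and 11.30 in vehicle, 11.21 and 11.12 at 4 h, 12.60 and 12.45 at 16 h, and 12.86 and 12.82 at 48 h. It rose 2.38-fold at 16 h (adjusted p = 1.63e-05) and 2.96-fold at 48 h (adjusted p = 1.4e-06). Its paralogue P4HA2 read 9.61 and 9.60 in vehicle, 9.31 and 9.47 at 4 h, 9.98 and 10.00 at 16 h, and 10.65 and 10.55 at 48 h. The groups of P4HA2 at 16 h and 48 h were apart from vehicle and from each other. It rose by 0.39 ± 0.09 at 16 h (adjusted p = 0.0307) and was 2-fold higher at 48 h (adjusted p = 4.54e-05). Its other probe sets gave 0.15 and -0.02 at 48 h with no call, and with the mean of all its probe sets P4HA2 had 0.27 at 16 h with no call (adjusted p = 0.101) and 0.38 at 48 h (adjusted p = 0.0204). The 16 h call of P4HA2 was lost without either vehicle array and without either 16 h array (adjusted p up to 0.149).

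PLOD1, a lysyl hydroxylase of collagen, read 10.53 and 10.77 in vehicle, 10.71 and 10.60 at 4 h, 11.16 and 11.19 at 16 h, and 11.40 and 11.28 at 48 h. It rose by 0.52 ± 0.11 at 16 h (adjusted p = 0.0119), a call lost without vehicle replicate 1 or DHT 16 h replicate 2 (adjusted p up to 0.129), and by 0.69 ± 0.11 at 48 h (adjusted p = 0.0016). PLOD2, the lysyl hydroxylase best known as a HIF target, had log2 changes of -0.20, 0.07 and 0.21 at 4 h, 16 h and 48 h with no call. The extracellular crosslinking enzymes LOX and LOXL2 had changes of 0.05 to 0.12 with no call at any time, and both were dim, with mean signals below the median of all genes.

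Of the 8 genes grouped here under chromatin and transcription, ANKRD37 among them, 2 were higher and 1 lower at 16 h, and 4 were higher at 48 h. ANKRD37, a small ankyrin-repeat protein and a direct HIF target, went both ways. It read 9.17 and 9.04 in vehicle, 8.82 and 8.80 at 4 h, 8.32 and 8.68 at 16 h, and 10.41 and 10.39 at 48 h. The 4 h and 16 h arrays lay below vehicle and the 48 h arrays above all others. It fell at 16 h by 0.60 log2 units (SE 0.12, adjusted p = 0.0105) and rose 2.46-fold at 48 h (1.30 ± 0.12, adjusted p = 3.51e-05). Without vehicle replicate 1 the fall at 16 h was not called (adjusted p = 0.105), and a dim second probe set gave 0.13 at 16 h and 0.03 at 48 h.

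KDM4B, a histone H3 lysine 9 demethylase, read 10.05 and 9.82 in vehicle, 10.48 and 10.40 at 4 h, 11.04 and 10.78 at 16 h, and 10.99 and 10.92 at 48 h. It had the largest log2 change upward of the members at 4 h, 0.51 ± 0.12, without a call (adjusted p = 0.168). It rose by 0.98 ± 0.12 at 16 h (adjusted p = 0.000445) and by 1.02 ± 0.12 at 48 h (adjusted p = 0.000185). KDM3A, a related demethylase, read 10.42 and 10.67 in vehicle, 10.68 and 10.47 at 4 h, 10.76 and 10.79 at 16 h, and 11.29 and 11.38 at 48 h. Only the 48 h arrays of KDM3A stood well clear, with a rise of 0.79 ± 0.11 (adjusted p = 0.000922).

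KDM4C, a relative of KDM4B, read 8.25 and 8.51 in vehicle, 8.37 and 8.34 at 4 h, 8.73 and 8.82 at 16 h, and 8.77 and 8.67 at 48 h. Its rise of 0.40 ± 0.11 at 16 h sat just inside the threshold (adjusted p = 0.0456) and that of 0.34 ± 0.11 at 48 h just outside (adjusted p = 0.0718). The 16 h call of KDM4C was lost without any single array other than vehicle replicate 2 (adjusted p up to 0.345). ZNF395, a transcription factor induced by hypoxia, read 10.27 and 10.31 in vehicle, 10.30 and 10.04 at 4 h, 10.52 and 10.81 at 16 h, and 10.87 and 11.05 at 48 h. It rose by 0.67 ± 0.12 at 48 h (adjusted p = 0.00556), a call lost without vehicle replicate 1 or DHT 48 h replicate 2 (adjusted p up to 0.0567). The circadian repressors BHLHE40 and BHLHE41 and the JmjC-domain protein JMJD6 had changes between -0.33 and 0.14 with no call.

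Of 5 secreted or surface proteins, VEGFA and TMEM45A were higher at 48 h. VEGFA, the main blood vessel growth factor, read 11.23 and 11.42 in vehicle, 11.51 and 11.43 at 4 h, 11.65 and 11.32 at 16 h, and 12.44 and 12.23 at 48 h. The 16 h arrays overlapped vehicle (0.16 ± 0.13, adjusted p = 0.552), and the 48 h arrays lay above all others. VEGFA was 2.01-fold higher at 48 h (1.01 ± 0.13, adjusted p = 0.000381), and 1 of its 3 other probe sets was called there, at 1.12, while the others gave 1.30 and 0.99. TMEM45A, a transmembrane protein induced by hypoxia, was dim. It read 7.34 and 7.18 in vehicle, 7.28 and 6.98 at 4 h, 7.73 and 7.74 at 16 h, and 8.15 and 7.87 at 48 h. Its rise was 0.48 ± 0.13 at 16 h (adjusted p = 0.0439), lost without either vehicle or either 16 h array (adjusted p up to 0.180), and 0.75 ± 0.13 at 48 h (adjusted p = 0.00284).

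STC1, a secreted glycoprotein hormone, was the member called at 4 h. It read 9.50 and 9.51 in vehicle, 9.01 and 8.80 at 4 h, 9.58 and 9.62 at 16 h, and 9.45 and 9.36 at 48 h. The 4 h arrays were the lowest, at -0.60 ± 0.10 (adjusted p = 0.0408), and the 48 h arrays lay just below vehicle with no call (-0.10). The 4 h call was lost without any single array other than those of 16 h (adjusted p up to 0.599), and the 2 other probe sets of STC1 had -0.25 and -0.10 with no call. ADM, a vasodilator peptide, was dim on all arrays (5.80 to 6.10) and had changes of -0.02 to 0.02. ANGPTL4, a lipoprotein lipase inhibitor, had changes of 0.13 to 0.22 with no call.

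Among stress and signalling genes, NDRG1, a hypoxia- and androgen-responsive gene linked to differentiation, had the largest rise of all members. It read 9.92 and 10.33 in vehicle, 10.48 and 10.39 at 4 h, 12.88 and 12.94 at 16 h, and 12.99 and 12.83 at 48 h. The log2 change was 2.78 ± 0.13 at both 16 h and 48 h (adjusted p = 2.83e-07 and 1.83e-07). ERO1A, the oxidase that drives disulfide formation in the endoplasmic reticulum, read 10.38 and 10.31 in vehicle, 10.18 and 10.14 at 4 h, 10.46 and 10.26 at 16 h, and 11.08 and 11.20 at 48 h. At 48 h it was 0.80 ± 0.10 higher (adjusted p = 0.000406), against 0.02 ± 0.10 at 16 h. Its 2 other probe sets were called at 48 h as well (0.98 and 0.92), and 1 of them already at 16 h (0.73), so the time of the rise differed between probe sets.

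DDIT4, an inhibitor of mTORC1 under stress, read 13.75 and 13.89 in vehicle, 13.56 and 13.61 at 4 h, 13.56 and 13.62 at 16 h, and 14.56 and 14.51 at 48 h. Its 4 h and 16 h arrays lay below vehicle, with -0.23 at each time and no call, and at 48 h it rose by 0.72 ± 0.09 (adjusted p = 0.000493). The ubiquitin ligase subunit WSB1 had 0.41 ± 0.14 at 48 h (adjusted p = 0.1), with 1 of 4 other probe sets called (0.56). The kinase RIOK3 and the nuclear envelope protein SPAG4 had changes between -0.08 and 0.24 with no call. In glycogen metabolism, the branching enzyme GBE1 read 10.20 and 10.16 in vehicle, 10.08 and 9.86 at 4 h, 10.48 and 10.61 at 16 h, and 10.65 and 10.75 at 48 h. GBE1 was higher by 0.52 ± 0.10 at 48 h (adjusted p = 0.00821), a call lost without vehicle replicate 1 or DHT 48 h replicate 2 (adjusted p up to 0.0662). The glycogen-targeting phosphatase subunits PPP1R3B and PPP1R3C had changes of -0.32 to 0.15 with no call.

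**Figure D3:**
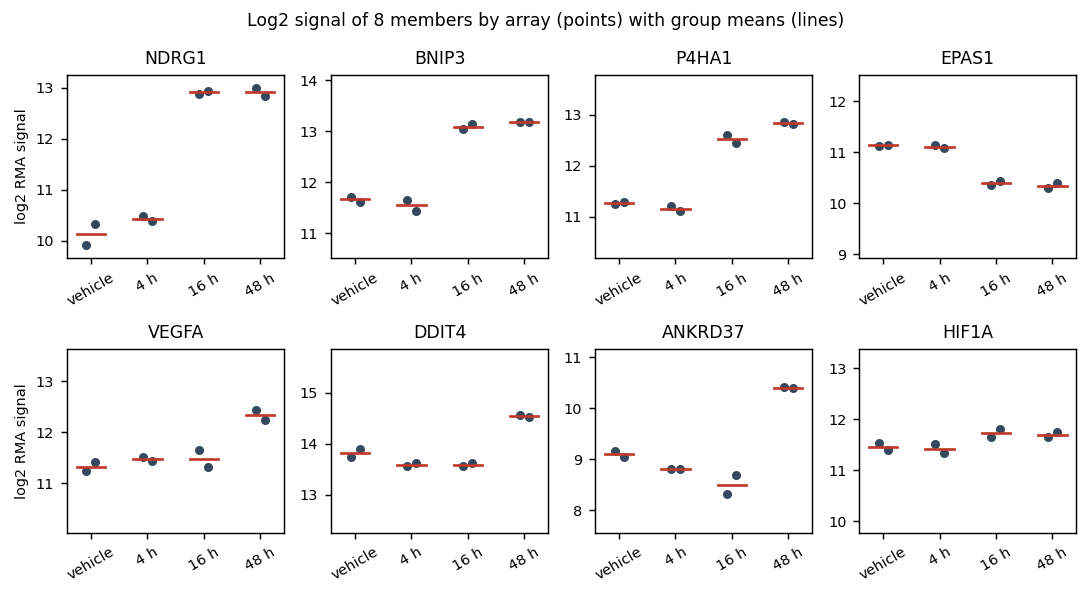
Log2 RMA signal (y axis, each panel spans the same number of log2 units) of 8 members on each array (points) with group means (lines), from vehicle to 48 h of DHT. NDRG1, BNIP3 and P4HA1 step up between 4 h and 16 h, EPAS1 steps down there, VEGFA, DDIT4 and ANKRD37 step up between 16 h and 48 h, and HIF1A stays within 11.35 to 11.82.

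The members differed in when they moved, which was tested by comparing the DHT groups with each other. Between 4 h and 16 h, 12 members were higher at 16 h and 1, EPAS1, was lower (-0.71 ± 0.09, adjusted p = 0.00138), against 1.28% and 1.77% of all genes. The largest steps were those of NDRG1 (2.48 ± 0.13), BNIP3 (1.54 ± 0.10), P4HA1 (1.36 ± 0.09) and FAM162A (1.07 ± 0.09). STC1 was among the 12, at 0.69, but its other probe sets gave 0.23 and -0.13 with no call. With the mean of all probe sets of a gene, the calls of STC1 (0.26), P4HA2 (0.36) and EGLN1 (0.32) were lost. Without DHT 4 h replicate 2 the count was 5, the calls of BNIP3L, EGLN1, PLOD1, STC1, TMEM45A, AK4 and GBE1 being lost. Calls were also lost without DHT 4 h replicate 1 (P4HA2, BNIP3L, EGLN1 and PLOD1), DHT 16 h replicate 1 (BNIP3L) and DHT 16 h replicate 2 (PLOD1, TMEM45A and GBE1). KDM4B, at 0.47 ± 0.12, just missed (adjusted p = 0.056).

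Between 16 h and 48 h, 8 members were higher at 48 h and 0 lower in limma, against 0.349% and 0.480% of all genes. They were ANKRD37 (1.90 ± 0.12, adjusted p = 6.42e-05), DDIT4 (0.95 ± 0.09), HILPDA (0.91 ± 0.10), VEGFA (0.85 ± 0.13), ERO1A (0.78 ± 0.10), CITED2, P4HA2 (0.61 ± 0.09) and KDM3A (0.56 ± 0.11). In all, 14 members had an unadjusted p below 0.05, with no share of all genes computed at that level. The calls of ANKRD37, DDIT4 and HILPDA held without each of the 8 arrays in turn. The count was 3 without DHT 48 h replicate 2, 4 without DHT 48 h replicate 1 and 5 without DHT 16 h replicate 2, the array that stood apart. With the mean of all probe sets of a gene the step of P4HA2 was 0.11 (adjusted p = 0.76) and that of VEGFA 1.03, also with no call. With probe sets outside the _s_at and _x_at kinds that of ERO1A was 0.19 (adjusted p = 0.558), the gene being called at 16 h already (0.73). P4HA2 and VEGFA lost their calls without each of these 3 arrays, KDM3A without any 4 h, 16 h or 48 h array, and ERO1A without DHT 48 h replicate 2.

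By calls, 10 members were higher at both 16 h and 48 h with no call between these times: NDRG1, BNIP3, BNIP3L, P4HA1, EGLN1, FAM162A, KDM4B, PLOD1, TMEM45A and AK4. For 7 members higher at 48 h the step after 16 h was called too. Of these, P4HA2 was already higher at 16 h, ANKRD37 was lower, and VEGFA, HILPDA, KDM3A, DDIT4 and ERO1A had no call at 16 h. A missing call between 16 h and 48 h does not show a plateau: P4HA1 and BNIP3L still had 0.31 ± 0.09 and 0.34 ± 0.10.

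**Figure D4:**
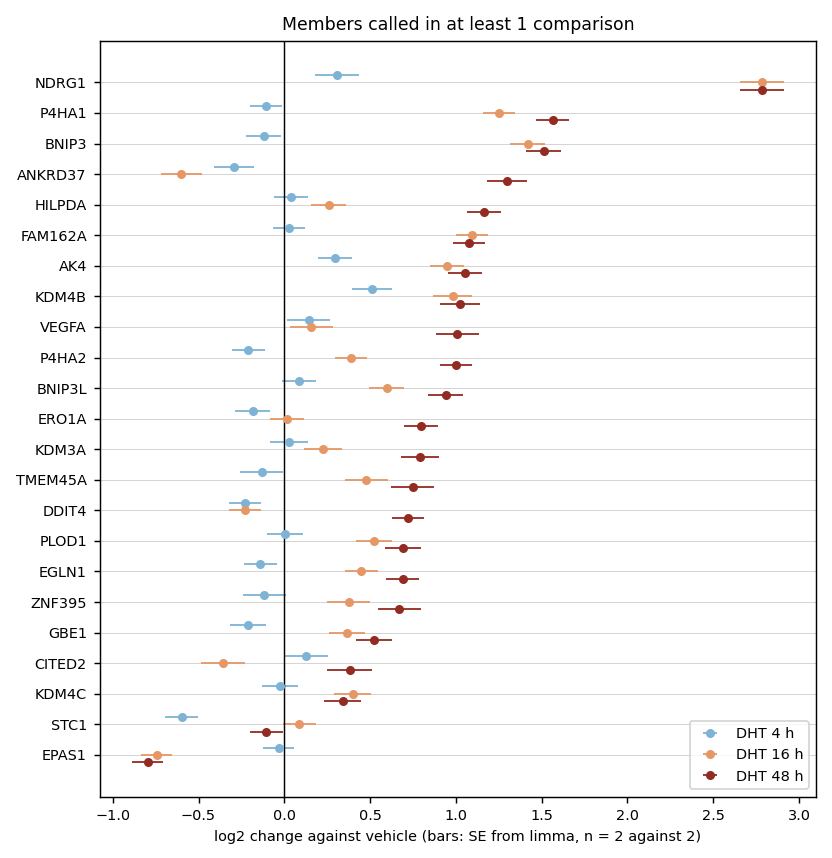
Log2 change against vehicle (x axis, points with SE bars from limma, n = 2 against 2) at 4 h, 16 h and 48 h for the 23 members called in at least 1 of the 5 comparisons, ordered by their value at 48 h. For NDRG1, BNIP3 and FAM162A the 16 h and 48 h points nearly coincide, whereas HILPDA, VEGFA, ERO1A and DDIT4 show the 48 h point alone to the right, and ANKRD37 has its 16 h point left of 0.

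A further 16 members had no call in any of the 5 comparisons, with changes against vehicle from -0.37 to 0.41. They were HIF1A, VHL, EGLN3, PLOD2, LOX, LOXL2, BHLHE40, BHLHE41, JMJD6, ADM, ANGPTL4, PPP1R3B, PPP1R3C, WSB1, RIOK3 and SPAG4. Of these, 6 were dim, with a mean signal below the median of all genes (8.44). For dim genes a change would be hard to see on these arrays.

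The reading of a member depended on its probe set in some cases. Of the 39 probe sets used, 18 were of the _s_at kind and 4 of the _x_at kind, both of which can match more than 1 transcript. For members called at 48 h, 34 other probe sets existed, of which 17 had the same call, 0 the opposite call and 17 none, with p adjusted across the 41091 probe sets. In that fit 1.55% of all probe sets were called higher and 3.61% lower at 48 h. At 16 h 10 of 28 other probe sets had the same call and 0 the opposite one, with 1.08% of all probe sets higher and 2.30% lower. AK4 was called at 48 h in all 3 of its other probe sets and KDM4B in 4 of 7. P4HA1 rests on its _s_at probe set alone, since its other one is dim (4.55 log2 units) and gave 0.10 at 48 h. EPAS1, P4HA2, KDM3A, ANKRD37 and EGLN1 had no call in any other probe set at 48 h, where those of EGLN1 gave 0.59, 0.63 and 0.25. These 3 read 9.57, 8.33 and 6.12 on DHT 16 h replicate 2, below 10.16, 9.16 and 6.90 on replicate 1.

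**Figure D5:**
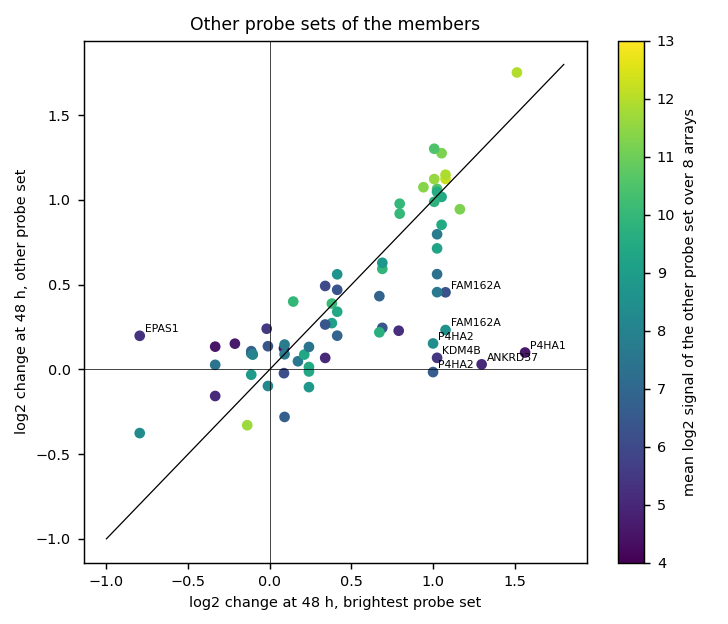
Log2 change at 48 h against vehicle of each other probe set of the members (y axis) against that of the brightest probe set of the same gene (x axis), with the line of equality and the other probe set's mean log2 signal as colour. Points of BNIP3, AK4 and VEGFA lie near the line, and dim probe sets of P4HA1 and ANKRD37 lie near 0 on the y axis, below their genes' values of 1.56 and 1.30 on the x axis.

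Other parts of the pathway were read from lists kept apart from the members. Of 18 genes of the HIF machinery (partners, hydroxylases, ligase subunits, coactivators and chaperones), limma called 0 at 4 h and 0 at 16 h. Of all genes, 0.106% were higher and 0.0708% lower at 4 h, and 2.55% and 4.30% at 16 h. An unadjusted p below 0.05 was found for 0 and 1 of the 18, with no share of all genes computed. At 48 h 1 was higher and 1 lower (5.56% each), close to the 3.13% and 6.38% of all genes. SIAH2, a ligase that degrades the EGLN hydroxylases, rose by 0.55 (adjusted p = 0.00976) and the coactivator CREBBP fell by 0.47 (adjusted p = 0.0115). Of 28 further hypoxia-inducible genes, 0 were higher and 1 lower (3.57%) at 4 h, against 0.106% and 0.0708% of all genes. At 16 h 5 were higher (17.9%) and 4 lower (14.3%), against 2.55% and 4.30% of all genes. At 48 h 3 were higher and 3 lower (10.7% each), against 3.13% and 6.38% of all genes. The median log2 change was 0.10 at 16 h and 0.06 at 48 h, against 0.02 and 0.01 for all genes. VLDLR, a lipoprotein receptor, rose by 2.12 at 48 h and ARLN by 0.70. IGFBP3, which binds insulin-like growth factors, fell by 2.27 at 48 h, CCNG2, a cyclin linked to cell cycle arrest, by 0.84, and INSIG2, a brake on sterol synthesis, by 0.48. INSIG2 was also the gene called at 4 h, where it fell by 0.61 (adjusted p = 0.022). CXCR4, a chemokine receptor, fell by 0.95 at 16 h.

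Of 20 hypoxia-inducible glycolysis genes, 10 were higher at 16 h (50%) and 13 at 48 h (65%), against 2.55% and 3.13% of all genes, and 0 were lower at either time. Their median log2 change was 0.34 at 16 h and 0.48 at 48 h, against 0.02 and 0.01 for all genes. At 48 h PDK1, a kinase that inhibits pyruvate dehydrogenase, rose by 1.68, PFKFB4 by 1.35, PFKP by 1.09 and PFKFB3 by 0.68. ENO2 and PKM rose by 0.60 and 0.59 at 16 h and by 0.53 and 0.55 at 48 h. Neither was called between these times in limma (adjusted p = 0.891 and 0.962). At 4 h limma called 0 of these 20, against 0.106% of all genes higher and 0.0708% lower. An unadjusted p below 0.05 was found for 1 of them, with no share of all genes computed at that level.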

How the data were processed

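The deposited table holds log2 signals for 54675 probe sets on 8 arrays, made by the authors with RMA (robust multi-array average), per the submitters' processing notes; its version is not stated here. No further normalisation was applied. Leaving out 62 control probe sets, 1 symbol was attached to 41091, several to 1801 and none to 11721, and 0 symbols needed updating. Each gene was read by its brightest probe set. A linear model with 4 group means was fitted to all 8 arrays and 19775 genes with limma 3.58.1 in R 4.3.3 (4 residual and 7.21 prior degrees of freedom), with Benjamini-Hochberg adjustment over all genes in each of 5 comparisons and two-sided tests. Errors are standard errors from this fit. The p-values set each change against the spread between replicate arrays, which is estimated in part from the other genes. An exact permutation test of 2 arrays against 2 cannot go below 0.333 and was not run. The fit was tested on simulated data.

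The members, the other lists and the tests were chosen with earlier results of these data known. Values of every array are given for HIF1A, EPAS1, VHL, EGLN1, EGLN3 and VEGFA and for each member called in any comparison. From each other list up to 6 called genes with the largest absolute change in any of the 3 comparisons with vehicle are named, and promoters are shown for up to 4 called members. Replicate numbers were not used, since the labels do not say that a number marks a shared day or batch. Deviations of same-numbered arrays correlated between groups at -0.244 to 0.196. Alternatives changed the arrays, the prior, the probe set, the filter and the scaling. The number of arrays limits the precision.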

Additional observations from a re-analysis of the deposited data

Results flagged for a closer look

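The following members differed between DHT times by the limma test of the difference itself, with vehicle cancelling out. At 16 h against 4 h the log2 differences were 2.48 for NDRG1, 1.54 for BNIP3, 1.36 for P4HA1, 1.07 for FAM162A, 0.69 for STC1, 0.65 for AK4, 0.61 for TMEM45A, 0.60 for P4HA2, 0.59 for EGLN1, 0.57 for GBE1, 0.52 for PLOD1, 0.51 for BNIP3L and -0.71 for EPAS1. At 48 h against 16 h they were 1.90 for ANKRD37, 0.95 for DDIT4, 0.91 for HILPDA, 0.85 for VEGFA, 0.78 for ERO1A, 0.74 for CITED2, 0.61 for P4HA2 and 0.56 for KDM3A. P4HA2 appeared in both. The 2 comparisons share the 16 h arrays.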

How the results depend on the processing

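Of the calls against vehicle, 18 of 20 at 48 h, 7 of 14 at 16 h and 0 of 1 at 4 h held when any 1 of the 8 arrays was left out, and between times 5 of 13 and 3 of 8 did. Over these 8 fits the number of members higher ranged from 6 to 11 at 16 h (lowest without vehicle replicate 1), 17 to 20 at 48 h, 5 to 13 for 16 h against 4 h and 3 to 8 for 48 h against 16 h, and was 0 at 4 h. The number lower ranged from 0 to 1 at 4 h, 1 to 3 at 16 h, 1 to 2 at 48 h and 1 to 2 for 16 h against 4 h, and the number called at any time from 21 to 24. The 1 lower call at 4 h (STC1) became 0 with a replicate block, with only the 2 groups compared, with probe sets outside the _s_at and _x_at kinds, with the mean of all probe sets, adjusted over all probe sets and with equal housekeeping signal. Lower calls were 1 at 16 h with only the 2 groups compared and with the mean of all probe sets, and 0 at 48 h with that mean. For 16 h against 4 h they were 2 with genes below the median signal removed, with the mean of all probe sets and with equal housekeeping signal. Higher calls for 48 h against 16 h were 4 with only the 2 groups compared and adjusted over all probe sets. With probe sets outside the _s_at and _x_at kinds FAM162A reversed for 16 h against 4 h, at -0.0299 against 1.07, and calls were lost for P4HA1, FAM162A, KDM4C and TMEM45A at 16 h, P4HA1 and FAM162A at 48 h, P4HA1 and FAM162A for 16 h against 4 h, and KDM3A and ERO1A for 48 h against 16 h. The replicate block also ended the calls of KDM4C at 16 h and KDM3A for 48 h against 16 h. Same-numbered arrays did not deviate together in every pair of groups, and the numbers were not treated as pairs. Over all alternatives, genes called among all genes ranged from 5 to 60 at 4 h (35 as reported), 517 to 1654 at 16 h (1354), 834 to 2211 at 48 h (1881), 171 to 1107 for 16 h against 4 h (604) and 37 to 644 for 48 h against 16 h (164). Where the cause of a change is not the alternative's own construction, the cause was not tested. Signal near background limits dim members.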
